A study of Mus musculus with 30 samples.

Results

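The pro-survival BCL2 family was examined in 30 transcriptomes of a mouse B-cell lymphoma line. Its 7 members, chosen by name, were Mcl1, Bcl2, Bcl2l1 (which encodes BCL-XL), Bcl2l2 (BCL-W) and the 3 A1 genes Bcl2a1a, Bcl2a1b and Bcl2a1d, of 55401 genes in the count table. All lines came from 1 Eµ-Myc; p19ARF-/- cell line, in which the immunoglobulin heavy chain enhancer drives the Myc transgene in B cells and the Arf product of Cdkn2a is missing. The groups were 12 lines taken through repeated cycles with DMSO, 17 lines taken through the same cycles with paclitaxel, a microtubule-stabilizing drug, and 1 library of the parental line, labelled N/A for treatment. In each drug cycle 10000 cells per well were given a dose of paclitaxel meant to kill 85% of the cells in 3 days, followed by 4 days without drug, for 12 to 18 weeks, and the control lines were given DMSO in its place. Each library came from a line grown in its own well, so the spread between libraries was the spread between separately evolved lines of 1 origin. No further cultures of a line were sequenced.

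Proteins of the family sit on the outer mitochondrial membrane and elsewhere in the cell. They hold the effectors BAX and BAK1 in check and are themselves bound by the BH3-only proteins, which signal stress. MCL1 is a short-lived protein that B-cell lymphomas driven by Myc are known to depend on, and it is removed during prolonged mitotic arrest, the state that paclitaxel causes.

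The libraries counted reads at the 3′ end of transcripts, so levels were scaled by library size and not by transcript length, and levels of different genes were not compared. Total counts ran from 480919 (the line labelled Pac C1) to 6739131 (DMSO 11). Values are TMM-normalized counts per 1000000 counts (CPM), and the test was edgeR's quasi-likelihood F test with Benjamini-Hochberg adjustment over 9445 tested genes and a threshold of 0.01. Cdkn2a had 0 counts in all 30 libraries. All 9 B-cell markers examined were tested. Sums over marker lists were scaled to total counts without TMM factors. For B-cell markers the sum was 2756 to 5252 CPM in the DMSO lines and 1785 to 4664 CPM in the paclitaxel lines. 0 of the 9 passed the threshold, with a median log2 fold change of -0.26 and 7 of 9 below 0. Cd79b, of the B-cell receptor, came nearest (-0.64, edgeR adjusted p = 0.0132), and Ms4a1, which encodes CD20, stood at 255.9 ± 243.6 CPM in the DMSO lines and 71.7 ± 113.7 CPM in the paclitaxel lines (-1.84, edgeR adjusted p = 0.128). The T-cell markers Cd3e and Cd4 and the myeloid markers Adgre1 and S100a8 had 0 counts. The T-cell marker Cd3d had 279 counts in 28 libraries and Cd3g had 93 counts in 9. Summed T-cell markers reached 21.1 CPM, summed myeloid markers, mostly Itgam, 49.3 CPM, and erythroid and fibroblast markers at most 0.504 CPM.

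Some libraries stood apart from their labels. In a principal component analysis of all tested genes except the members, 10 of the 12 DMSO lines lay between -32.2 and -24.9 on PC2, which held 11.5% of the variance, and the paclitaxel lines lay between 0.774 and 69.6. DMSO 5 lay at -10.8 and DMSO 12, at 21.9, lay among the paclitaxel lines. By the root mean square log2 difference to the mean of each group, DMSO 11, DMSO 12, Pac C1 and Pac H9 were nearer to the other group. The parental library lay at -31.9 on PC2, among the DMSO lines. In the order of the table DMSO 12 comes just before the paclitaxel lines and Pac H9 just before the parental library. A shift of the labels by 1 place from DMSO 12 on and lines that are unlike their group cannot be told apart here. Under such a shift the name of every paclitaxel line and of the parental library would belong to another library, so values of single lines and of the parental library are those of the library that carries the name. Group comparisons are also given without DMSO 12 and Pac H9, which lie at these borders. On PC2 Pac H9 (1.54), like DMSO 11 (-28.9) and Pac C1 (69.6), lay on its own group's side. DMSO 11 and Pac C1 do not lie at a border and were kept, and without all 4 libraries the log2 fold change (paclitaxel minus DMSO) was 0.76 for Mcl1 and 0.80 for Bcl2 (edgeR, adjusted p = 0.0850 and 0.147). Within the DMSO lines and within the paclitaxel lines, no 2 libraries agreed within the sampling noise of independent reads. Even the most similar such pair (DMSO 6 and DMSO 9) had a mean chi-square over 8968 genes of 5.75, where that noise alone gives about 1. Reads are not independent if copies of a molecule were counted more than once, which is not known here. Pairs across the groups and pairs with the parental library were not compared.

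Only Mcl1 and Bcl2 passed the filter on low counts. Over all 30 libraries Mcl1 had 11135 counts, Bcl2 420, Bcl2l1 119, Bcl2l2 8 and Bcl2a1b 4, and Bcl2a1a and Bcl2a1d had none. The difference between the groups passed the threshold for neither of the 2 tested members, where 2.2% of all tested genes did (208 of 9445, of which 94, or 0.995%, were higher and 114, or 1.21%, lower in the paclitaxel lines).

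**Figure D1:**
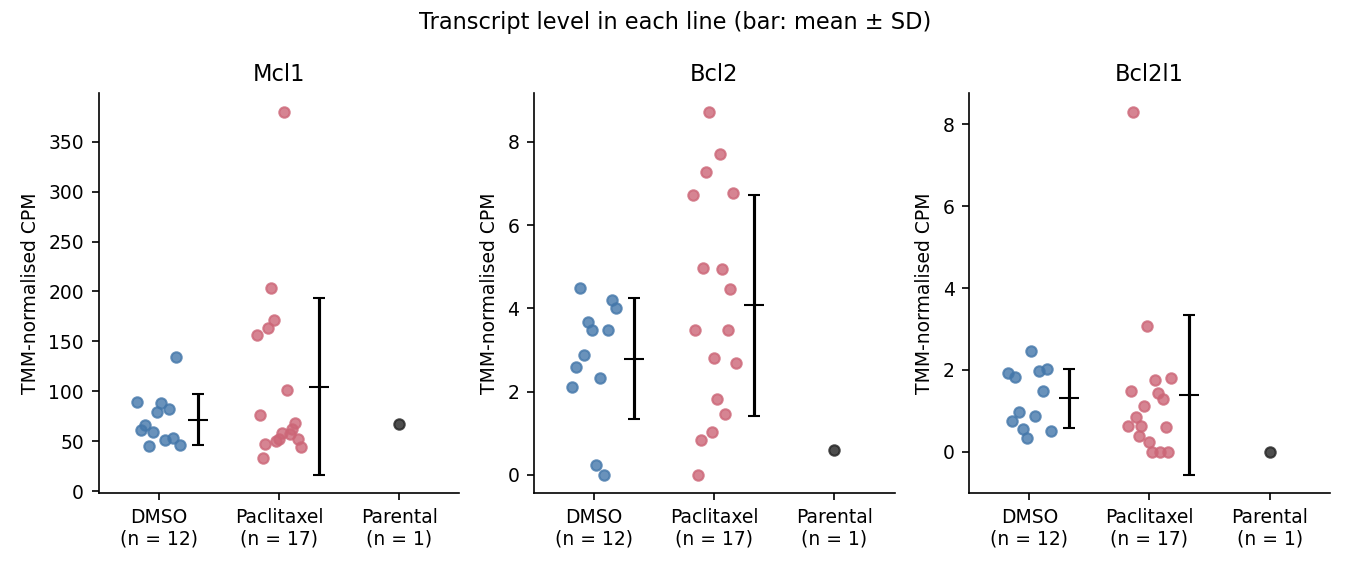
TMM-normalized CPM of Mcl1, Bcl2 and Bcl2l1 in each line, with 12 DMSO lines, 17 paclitaxel lines and the parental line on the horizontal axis and a bar for the mean ± SD. Mcl1 reached 380.1 CPM in 1 paclitaxel line, the 2 groups overlapped for all 3 genes, and the highest Bcl2l1 point (8.30 CPM) rests on 4 counts.

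Mcl1 (ENSMUSG00000038612.16, chromosome 3 of GRCm38 from 95658788 to 95663176, plus strand) was found in all 30 libraries. Its level was 71.3 ± 25.5 CPM in the DMSO lines (SD, n = 12), with a lowest value of 45.4, a median of 63.6 and a highest value of 134.7 in DMSO 11. In the paclitaxel lines it was 104.5 ± 88.4 CPM (SD, n = 17), from 33.2 in Pac C1 through a median of 62.1 to 380.1 in Pac F10. The parental library held 67.6 CPM, above 7 of the 12 DMSO lines. The medians of the groups lay within 2 CPM of each other, whereas the paclitaxel mean was pulled up by a few lines.

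The log2 fold change of Mcl1 (paclitaxel minus DMSO) was 0.57 with a standard error of 0.30 and a 95% interval from -0.04 to 1.17 (edgeR, adjusted p = 0.231). Without DMSO 12 and Pac H9 it was 0.57 (edgeR, adjusted p = 0.237). The value rested in part on single lines. It was 0.29 without Pac F10 and 0.75 without DMSO 11 (edgeR, adjusted p = 0.504 and 0.106). The median log2 fold change of all tested genes was 0.07. 5 of the 17 paclitaxel lines lay above every DMSO line and 2 lay below every one. At least 5 paclitaxel lines lay above every DMSO line for 18.5% of all tested genes, so this count was common. In bulk libraries such as these, fewer cells expressing a gene and less of its RNA per cell cannot be told apart.

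Mcl1 differed among the paclitaxel lines by which side of PC1 they lay on. PC1, computed without the members, held 23.7% of the variance, and the paclitaxel lines fell on both sides of an empty stretch from -4.69 to 43.6. The 6 lines above it were Pac F10, Pac C11, Pac D4, Pac A6, Pac G9 and Pac D7, and DMSO 11, at 55.1, was the only DMSO line there. Mcl1 stood at 380.1 CPM in Pac F10, 203.7 in Pac D4, 171.0 in Pac D7, 162.9 in Pac C11, 156.7 in Pac A6, 134.7 in DMSO 11 and 101.7 in Pac G9. In the other 23 libraries, the parental library included, it ran from 33.2 through a median of 58.2 to 89.6 CPM. All 7 libraries with high PC1 therefore lay above all 23 others for Mcl1. The same separation was seen for 256 of the 9445 tested genes (2.71%), and the opposite one for 165 (1.75%). Because PC1 was drawn from the same libraries, this is a description and no test was run.

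**Figure D2:**
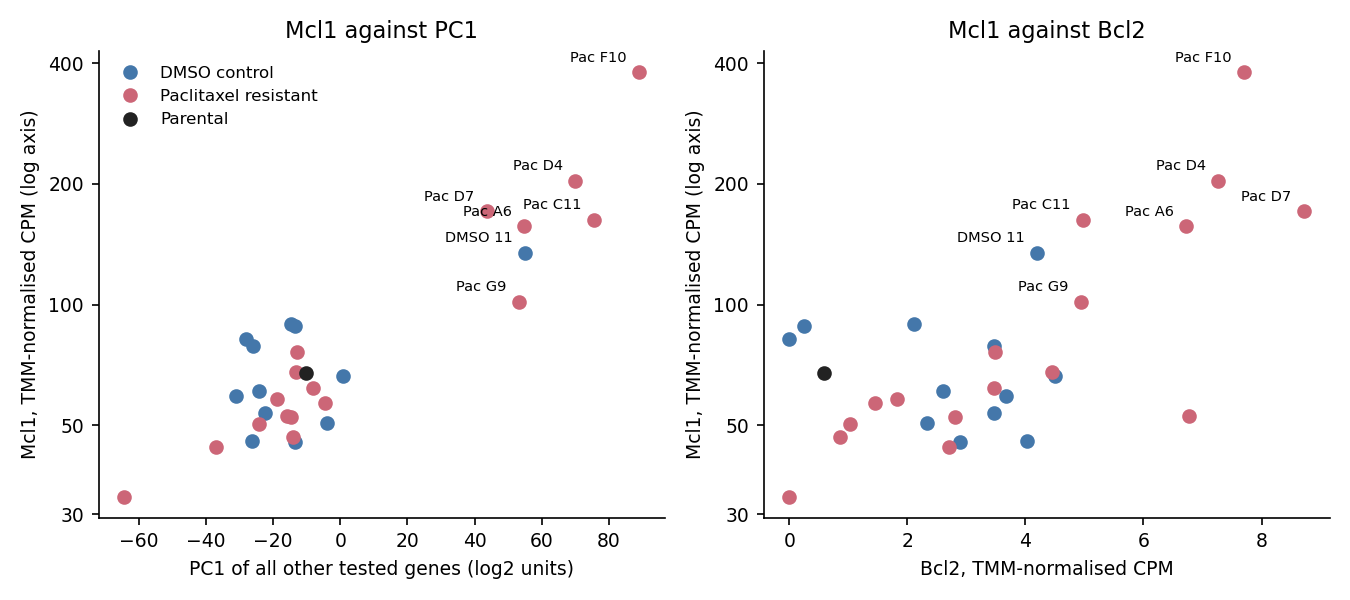
Mcl1 in each of 30 libraries (TMM-normalized CPM, log axis) against PC1 of all other tested genes (left, log2 units) and against Bcl2 (right, TMM-normalized CPM), coloured by group. The 7 libraries above 100 CPM of Mcl1, named beside their points, are those with PC1 of 43.6 or more, and they hold 4.20 to 8.72 CPM of Bcl2.

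The separation of Mcl1 was the same with RLE factors (lowest of the 7 at 101.9, highest of the others at 89.6 CPM) and with scaling to total counts (120.0 and 90.5 CPM). After every library was thinned to 480919 counts, 6 of the 7 were among the 7 highest, with 90.4 CPM as the lowest of the 7 and 103.8 CPM as the highest of the others. Some other properties of the libraries moved with PC1. The TMM factors of the 7 ran from 1.02 to 1.25 and those of the other 23 from 0.887 to 1.01. The 7 had 2640319 to 6739131 counts and 14171 to 17333 genes with a count, and the others had 480919 to 6682169 counts and 9852 to 16443 genes. The mitochondrial share of counts had similar medians, 3.84% (2.29% to 12.4%) in the 7 and 3.51% (1.34% to 7.39%) in the others. Over the paclitaxel lines Mcl1 had a Spearman correlation of 0.608 with the total counts (n = 17), and over the DMSO lines 0.245 (n = 12). The part of these properties in the level of Mcl1 was not tested.

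The genes on either side of Mcl1 gave no call. The 3 nearest tested genes on each side were Golph3l, Rps10-ps1 and Ensa, and Ecm1, Tars2 and Rprd2. Of these, 0 passed the threshold in edgeR (adjusted p from 0.141 for Ensa to 0.935 for Golph3l). Unadjusted p was under 0.05 for Ensa and Tars2, as it was for 2367 of all 9445 tested genes. In Pac F10, Mcl1 stood 6.12-fold above the median of the 29 evolved lines. Ecm1, 70971 bases away, was also highest in that line (22.6 CPM against a median of 2.05), as was Ensa, 26686 bases away (311 against 249 CPM). Golph3l, 39541 bases away, was lowest of all 29 lines there (41.5 against 95.9 CPM). Rprd2 was second highest (75.6 against 29.9 CPM), and Tars2 (344 against 269 CPM) and Rps10-ps1 (10.7 against 9.13 CPM) also lay above their medians. In the line with the most Mcl1, its neighbours thus lay on both sides of their medians. The share of all tested genes that lay above their median in Pac F10 was not counted, so these values are a description.

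The genes whose levels ran most like Mcl1 over the 29 evolved lines were Uhmk1, a kinase that phosphorylates splicing factors (Spearman rho 0.842), Ncor1, a nuclear receptor corepressor (0.836), and Usp22, a deubiquitinase of the SAGA complex (0.836). Prps1, an enzyme of nucleotide synthesis, ran most opposite to it (-0.818). After thinning these were 0.559, 0.794, 0.616 and -0.860. The points share libraries and scaling factors, and 24 genes had a rho above 0.8. None of these 4 genes differed between the groups by edgeR (adjusted p from 0.246 to 0.694).

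Bcl2 (ENSMUSG00000057329.7, chromosome 1 from 106538178 to 106714274, minus strand), the founding member of the family, had between 0 and 44 counts per library and none in DMSO 9 and Pac C1. Its level was 2.79 ± 1.45 CPM in the DMSO lines (SD, n = 12), from 0 through a median of 3.18 to 4.50 in DMSO 3. In the paclitaxel lines it was 4.07 ± 2.66 CPM (SD, n = 17), from 0 through a median of 3.49 to 8.72 in Pac D7. The parental library held 1 count, or 0.593 CPM. The groups overlapped, and the upper part of the paclitaxel range had no DMSO line in it.

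The log2 fold change of Bcl2 was 0.59 with a standard error of 0.36 and a 95% interval from -0.14 to 1.33 (edgeR, adjusted p = 0.308), and 0.66 without DMSO 12 and Pac H9 (edgeR, adjusted p = 0.270). In 7 of 17 paclitaxel lines Bcl2 lay above every DMSO line. These were Pac D7, Pac F10, Pac D4, Pac H8, Pac A6, Pac C11 and Pac G9, at 4.94 to 8.72 CPM. At least as many lines did so for 7.58% of all tested genes. 6 of the 7 were the paclitaxel lines with high PC1, and the other was Pac H8, with 13 counts and 6.77 CPM. DMSO 11, the control line with high PC1, held 4.20 CPM, second among the DMSO lines. After thinning, 4 of the 7 libraries with high PC1 were among the 7 highest for Bcl2, and Bcl2 no longer passed the filter.

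Bcl2 lies over an antisense gene, D630008O14Rik (29 counts in all), and whether the deposited counts used the strand is not given in the sources used here. The last 500 bases of its annotated coding transcripts hold no exon of another gene. The 3 nearest tested genes on each side were Gm7160, Zcchc2 and Phlpp1, and Kdsr, Vps4b and Serpinb7. Of these, 0 passed the threshold in edgeR (adjusted p from 0.134 to 0.875). Zcchc2 and Kdsr had unadjusted p under 0.05, as did 2367 of all 9445 tested genes. Tmem131l (Spearman rho 0.794 over 29 lines), the poly-ADP-ribose polymerase Tnks (0.775) and the poly(A) polymerase Tent4a (0.756) ran most like Bcl2, and Tango2 (-0.789) most opposite. Thinning took these to 0.510, 0.352, 0.365 and -0.411.

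Mcl1 and Bcl2 were high in many of the same lines. Since the paclitaxel lines fell into 2 clusters on PC1, correlations of log2 CPM were taken within each. Among the 11 lines with low PC1, Pearson's r was 0.711 (permutation p = 0.0173, adjusted over 9 relations 0.152) and Spearman's rho was 0.682 (permutation p = 0.0249, adjusted 0.143). Without Pac C1 and Pac B2, the lines farthest from the median of Mcl1, r was 0.391, and after thinning it was 0.240. The relation did not pass the adjustment and rested on those lines. Among the 6 lines with high PC1, r was 0.598 and rho 0.771 (exact permutation p = 0.219 and 0.103). Without Pac F10 and Pac G9, r was 0.342. Among the 12 DMSO lines r was -0.268 and rho -0.196 (permutation p = 0.399 and 0.542). Without DMSO 11 and DMSO 1, r was -0.644 there. None of the 9 relations between Mcl1, Bcl2 and Bcl2l1 passed the adjustment (lowest adjusted permutation p = 0.143).

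The lines of each group were also compared in how far they spread. For Mcl1 the SD of log2 CPM was 0.960 in the paclitaxel lines and 0.465 in the DMSO lines, and the mean absolute deviation from the group median was larger by 0.36 on the log2 scale (permutation test, p = 0.120, adjusted p = 0.391). That difference was larger than in 84.4% of all tested genes. For Bcl2 the SDs were 1.09 and 1.02 (permutation p = 0.508, adjusted p = 0.701). The spread test called 0 of 9445 genes at an adjusted permutation p of 0.01, although 1352 had an unadjusted permutation p under 0.05, and 1343 of them (14.2% of all tested genes) were more spread among the paclitaxel lines. No second tool was run for the spread. Neither member was therefore shown to vary more among the paclitaxel lines.

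Bcl2l1 (ENSMUSG00000007659.18, chromosome 2 from 152780668 to 152831728, minus strand) encodes the BCL-XL protein. It had at most 14 counts in a library, in DMSO 11, and too few to pass the filter. It was counted in all 12 DMSO lines, with 0.347 to 2.45 CPM and 1.31 ± 0.721 CPM (SD, n = 12), and in 14 of 17 paclitaxel lines, with 1.39 ± 1.96 CPM (SD, n = 17). The highest value, 8.30 CPM in Pac C1, came from 4 counts in the library with the fewest counts, and the next highest, 3.08 CPM in Pac D10, from 3 counts. The parental library had 0 counts. Summed over the lines of a group, Bcl2l1 stood at 1.33 CPM in the DMSO lines (exact Poisson 95% interval 1.03 to 1.69) and 0.987 CPM in the paclitaxel lines (0.742 to 1.29). Such intervals cover counting error only. The ranks of the 2 groups did not separate beyond their spread (two-sided permutation test of mean rank, p = 0.283, and 0.163 without DMSO 12 and Pac H9).

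Bcl2l2 (ENSMUSG00000089682.10, chromosome 14 from 54883377 to 54888234, plus strand), which encodes BCL-W, had 8 counts in 5 libraries. DMSO 11 held 3, Pac D4 2, and DMSO 8, Pac E1 and Pac H1 1 each, so each group had 4. The ranks did not separate (permutation test, p = 0.926). Gm20521, a gene model on the same strand, overlaps Bcl2l2 and had 0 counts. It shares 65.9% and 89.4% of the last 500 bases of the 2 shortest coding transcripts of Bcl2l2 and none of the 2 longest, whose ends were unique.

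**Figure D3:**
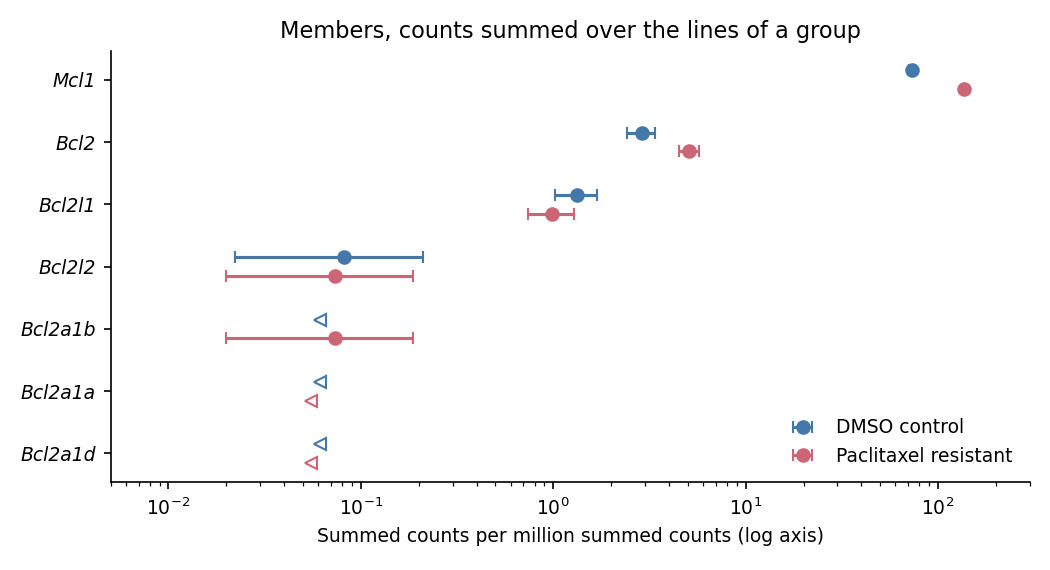
Counts of each member summed over the lines of a group, as CPM of the summed totals (log axis), for 12 DMSO and 17 paclitaxel lines. Bars are exact Poisson 95% intervals, narrower than the points for Mcl1, and open triangles mark the limit of 3 counts where a group had 0. The intervals cover counting error only and leave out the spread between lines. Those of Mcl1 and Bcl2 stand apart, although neither gene passed the edgeR threshold between the groups. The intervals of the groups overlap for Bcl2l1 and Bcl2l2, and Bcl2a1a and Bcl2a1d stand at the limit in both groups. Positions are read within a gene, not between genes.

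The A1 genes lie in 1 cluster on chromosome 9: Bcl2a1d (ENSMUSG00000099974.1, 88723285 to 88731914, minus strand), Bcl2a1a (ENSMUSG00000102037.1, 88956900 to 88962419, plus strand) and Bcl2a1b (ENSMUSG00000089929.1, 89199209 to 89207827, plus strand). NF-kB is known to induce A1 in B cells. Bcl2a1a and Bcl2a1d had 0 counts in all 30 libraries, which allows up to 0.0613 CPM over the DMSO lines and 0.0549 CPM over the paclitaxel lines. Bcl2a1b had 4 counts, 2 in Pac H9 and 1 each in Pac D7 and Pac H3, and none in the DMSO lines (permutation test of mean rank, p = 0.245, and 0.496 without DMSO 12 and Pac H9). These limits hold for counted reads only, because the 3 genes are near copies. The last 90 bases of their coding sequence before the stop codon (GRCm38, coding positions 427 to 516) are shown for what a read of 50 bases could tell apart, in lower case with the 1 position that differs in capitals:

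Bcl2a1a: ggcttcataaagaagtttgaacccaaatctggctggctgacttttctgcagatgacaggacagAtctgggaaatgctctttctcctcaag

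Bcl2a1b: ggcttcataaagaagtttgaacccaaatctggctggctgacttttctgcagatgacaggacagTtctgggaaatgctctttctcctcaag

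Bcl2a1d: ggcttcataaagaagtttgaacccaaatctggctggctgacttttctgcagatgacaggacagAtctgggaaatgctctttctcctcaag

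These stretches lie at chr9:88962178-88962267 (plus strand), chr9:89207588-89207677 (plus strand) and chr9:88723437-88723526 (minus strand). Over the whole coding sequence of 516 bases the genes differ at 12 positions, and pairs are 97.9% (Bcl2a1a and Bcl2a1b), 98.6% (Bcl2a1a and Bcl2a1d) and 98.8% (Bcl2a1b and Bcl2a1d) identical. Of the 451 stretches of 50 bases in the last 500 bases of the transcript, 150 (33.3%) occur in no other annotated gene for Bcl2a1a, 59 (13.1%) for Bcl2a1b and 55 (12.2%) for Bcl2a1d. For Mcl1, Bcl2 and Bcl2l1 every such stretch was unique. Gm29094, on the same strand, also covers 50.8% of the last 500 bases of Bcl2a1b. STAR's gene counts leave out reads that align to several places or overlap several genes, so a low level of A1 and reads left uncounted cannot be told apart here. Of the 6 nearest tested genes at each of the Bcl2l1, Bcl2l2 and A1 loci, 0 passed, and Pdrg1 beside Bcl2l1 came nearest (log2 fold change 0.61, edgeR adjusted p = 0.0118).

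The genes that act on the pro-survival proteins were counted from lists. Of the BH3-only genes, 6 of 8 were tested, and 1 rose and 1 fell, with a median log2 fold change of 0.32 over the 6 (of all tested genes 2.2% were called, 0.995% higher and 1.21% lower). Pmaip1, whose product NOXA binds MCL1, rose from 12.4 ± 7.68 CPM in the DMSO lines (SD, n = 12) to 71.2 ± 116 CPM in the paclitaxel lines (SD, n = 17). Its log2 fold change was 2.57 with a standard error of 0.53 (edgeR, adjusted p = 0.00267), 2.64 without DMSO 12 and Pac H9, and 1.84 without Pac G9. By side of PC1, Pmaip1 had a median of 75.0 CPM (15.4 to 507.6) in the 6 paclitaxel lines with high PC1, 29.5 CPM (7.30 to 65.2) in the 11 with low PC1 and 13.9 CPM (1.99 to 23.7) in the 12 DMSO lines. Bad, whose product binds BCL2 and BCL-XL, fell from 51.9 ± 11.4 CPM (SD, n = 12) to 25.6 ± 9.99 CPM (SD, n = 17), with a log2 fold change of -1.04 and a standard error of 0.18 (edgeR, adjusted p = 0.000582). By side of PC1, Bad had a median of 15.1 CPM (13.2 to 25.3) in the paclitaxel lines with high PC1, 29.7 CPM (15.4 to 46.0) in those with low PC1 and 54.4 CPM (32.7 to 68.1) in the DMSO lines. Both genes were among those PC1 was computed from and their ranges overlapped between the 2 sides, so these values are a description, and the part of PC1 in the 2 calls was not tested. After thinning to equal depth Bad no longer passed, at -0.84 (edgeR, adjusted p = 0.0224). Bcl2l11, which encodes BIM, stood at 18.0 and 32.8 CPM (log2 fold change 0.90, standard error 0.32, edgeR adjusted p = 0.0778). Bid, Bbc3 and Bmf did not pass either. Bik and Hrk were not tested, with 70 counts in 10 libraries and 1 count.

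The effectors downstream gave no call in the 2 of 3 genes tested (median log2 fold change 0.26). Bax stood at 147.2 ± 25.5 CPM in the DMSO lines and 146.1 ± 68.7 CPM in the paclitaxel lines (log2 fold change -0.01, standard error 0.21). Bak1 stood at 5.63 ± 2.93 and 7.71 ± 6.27 CPM (0.53, standard error 0.36). Bok had 26 counts in 4 libraries and was not tested. Of 6 other BCL2 relatives, 2 were tested and 0 passed (Bcl2l12 and Bcl2l13, median log2 fold change -0.03), and Bcl2l10 and Bcl2a1c had 0 counts. All 9 genes of the apoptosome and caspase list were tested and 0 passed (median log2 fold change -0.06). Casp6, an executioner caspase, had the lowest p of them (log2 fold change -0.87, edgeR adjusted p = 0.195). All 5 inhibitor of apoptosis genes were tested and 0 passed, with a median log2 fold change of 0.01. Birc3 (-0.46, edgeR adjusted p = 0.122) and Birc6 (0.30, adjusted p = 0.457) came first. Casp6 and Birc3 were the only genes of these 4 lists with an unadjusted p under 0.05, where 2367 of all 9445 tested genes had one.

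**Figure D4:**
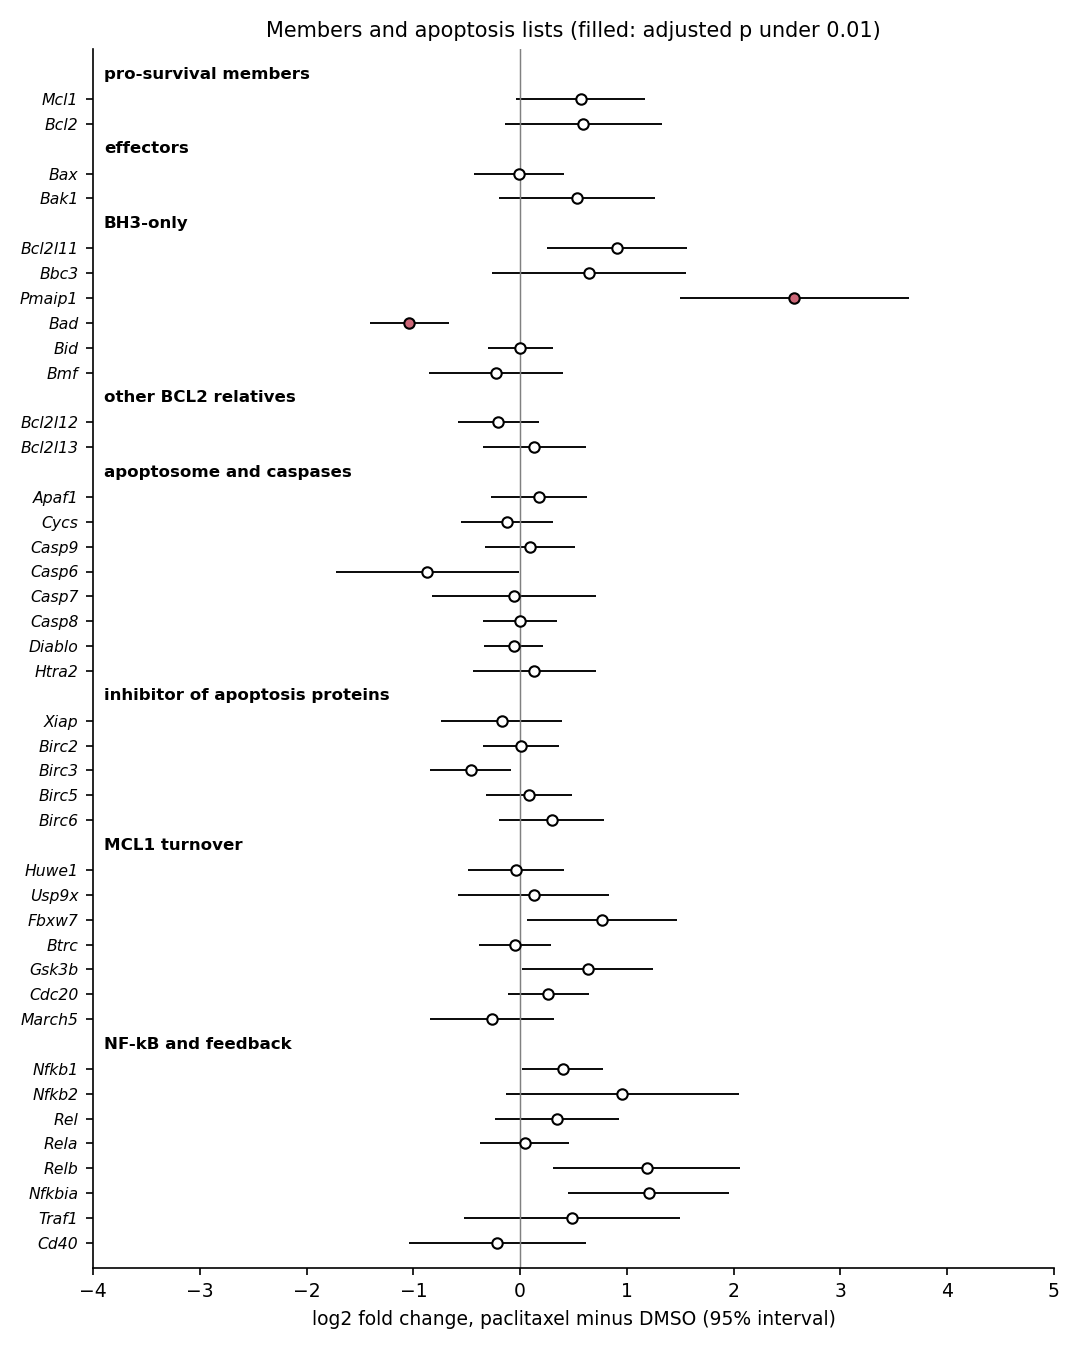
Log2 fold change (paclitaxel minus DMSO, 12 and 17 lines) of Mcl1, Bcl2 and tested genes of 7 apoptosis lists (all but 1), with 95% intervals from edgeR. Filled points passed the adjusted p threshold of 0.01, and these were Pmaip1 at 2.57 and Bad at -1.04.

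Genes that set the turnover of the MCL1 protein were all tested, 7 of 7, and 0 passed, with a median log2 fold change of 0.13. Fbxw7, the ubiquitin ligase subunit that targets MCL1 in mitotic arrest, stood at 14.5 ± 8.74 CPM in the DMSO lines and 24.6 ± 18.5 CPM in the paclitaxel lines (log2 fold change 0.77, standard error 0.35, edgeR adjusted p = 0.163). Gsk3b, the kinase that marks MCL1 for removal, stood at 14.3 and 21.9 CPM (0.63, standard error 0.30, adjusted p = 0.189). Both had an unadjusted p under 0.05, as did 2367 of all 9445 tested genes. Fbxw7 was also higher in all 7 libraries with high PC1 (26.2 CPM or more) than in all 23 others (22.6 CPM or less), as Mcl1 was.

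Of the NF-kB genes and their feedback targets, which act upstream of A1, 8 of 10 were tested and 0 passed, with a median log2 fold change of 0.44. Nfkbia, the inhibitor of NF-kB that NF-kB itself induces, stood at 39.0 ± 13.7 and 89.5 ± 93.4 CPM (log2 fold change 1.20, standard error 0.37, edgeR adjusted p = 0.0409). Relb stood at 4.05 ± 3.07 and 9.16 ± 8.35 CPM (1.19, standard error 0.43, adjusted p = 0.0834). Rela was the only other list gene besides Fbxw7 for which the 7 libraries with high PC1 lay above all others (44.5 CPM or more against 41.3 or less). These were 2 of 39 tested list genes, where 2.71% of all tested genes (256 of 9445) did so.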

How the data were processed

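The authors prepared 3′-end digital gene expression libraries in 2 subpools of 15 and used STAR 2.5.1b to map them as single-end reads on GRCm38. The deposited table holds raw counts per gene (55401 Ensembl identifiers, 0 rows without a gene). Which subpool held a line, and whether molecular identifiers were collapsed, is not given in the sources used here. Groups came from the treatment labels, and the phenotype groups of the study, which the labels do not carry, were not used.

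Counts were tested with edgeR 4.0.16 in R (TMM factors, filterByExpr, glmQLFTest, 12 DMSO against 17 paclitaxel lines, no covariate) with Benjamini-Hochberg adjustment and a threshold of 0.01. Levels are TMM-normalized CPM, and log2 values use a prior count of 2. Members that failed the filter, and spreads, were tested by 100000 permutations. Alternatives were DESeq2 1.42.0, the likelihood ratio test, RLE factors, no filter, thinning to 480919 counts, log10 total counts as a covariate, a threshold of 0.05, a prior count of 0.5, and leaving out each line or the libraries labelled DMSO 12 and Pac H9, and, added after seeing the data, also DMSO 11 and Pac C1. The code was tested on simulated data. Coordinates and transcript sequences are from GENCODE M21 on GRCm38, whereas the study names M25.

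The members and gene lists were chosen with earlier results of these data known. Of each list, genes that passed and otherwise the 2 with the lowest p were named, except for 1 gene that is not reported here. For each tested member the 3 genes with the highest rank correlation, the 1 with the lowest and the 3 nearest tested genes on each side were named. Bid, Bbc3, Bmf, Bik, Hrk, Bok, Rela and a few markers were named after their values were seen.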

Additional observations from a re-analysis of the deposited data

How the results depend on the processing

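No paired analysis was possible because the labels give the paclitaxel lines no replicate number shared with the DMSO lines. Mcl1 and Bcl2 kept their direction and stayed short of the threshold under all alternatives that gave a value, with log2 fold changes of 0.29 to 0.75 for Mcl1 and 0.48 to 0.71 for Bcl2 as each of the 29 lines was left out, and 0.67 and 0.75 with log10 total counts as a covariate. Bcl2 could not be fitted after thinning, since it failed the filter. The number of genes called (208) was 324 without DMSO 12 and Pac H9, 521 also without DMSO 11 and Pac C1 (a choice made after seeing the data, with 0.76 for Mcl1 and 0.80 for Bcl2), 448 by the likelihood ratio test, 493 by DESeq2, 101 after thinning and 713 at a threshold of 0.05, and 139 to 300 as each line was left out. The cause was not tested, except that fewer genes were tested after thinning (5190). The spread test called 0 genes under all 3 of its alternatives. Bcl2l2, at 8 counts, had a difference in mean rank (paclitaxel minus DMSO) of 0.142 and changed sign with no filter, at a log2 fold change of -0.022, and as lines were left out, from -0.729 to 1.27 in mean rank. For Bcl2l1 the difference in mean rank was -4.52 to -2.77 and for Bcl2a1b 1.75 to 2.63 as lines were left out. Among the 6 lines with high PC1, thinning reversed r for Mcl1 with Bcl2l1 from 0.276 to -0.747 and for Bcl2 with Bcl2l1 from 0.295 to -0.371, and the cause was not tested. Members that failed the filter were not run with the likelihood ratio test, DESeq2 or the covariate, and Bcl2a1a and Bcl2a1d, with 0 counts, gave no value under any alternative. Depth limits Bcl2, at 44 counts or fewer per library, and all members below it.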
